A study of Mus musculus with 6 samples.

Results

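Synaptic vesicle release and transmitter loading were followed through 47 genes, chosen by symbol as the calcium sensors, SNARE proteins, complexins, synapsins, vesicle membrane proteins, Rab3 GTPases, active zone proteins, transmitter transporters and synthetic enzymes, neurexins and β-synuclein of the nerve terminal. They are 47 of the 33345 gene entries with a symbol among 41945 entries in the table, and all 47 were found. Motor neurons (MNs) were derived from mouse embryonic stem cell (mESC) lines, and RNA-seq was done on 3 samples of each genotype. Hb9 control MNs came from a line labelled wildtype, which carries the human SMN2 transgene and intact mouse Smn (SMN2+/+;mSmn+/+). A2 SMA MNs came from a line that carries the same transgene and lacks mouse Smn (SMN2+/+;mSmn-/-), a model of spinal muscular atrophy (SMA). Both lines are on the FVB/N background and carry an eGFP reporter under the Hb9 promoter, Hb9 being the product of Mnx1. Embryoid bodies of both were treated for 5 days with 1 µM retinoic acid and 1 µM Smoothened agonist, and GFP-positive cells were then sorted. Each genotype is 1 mESC line, so genotype and line cannot be told apart.

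A nerve terminal stores transmitter in small vesicles that transporters in their membrane fill. Synapsins tether the reserve pool of vesicles. Rab3 and the active zone proteins RIM, Munc13, bassoon and piccolo act near the release site, where vesicles dock and Munc13 primes the SNARE proteins for fusion. Calcium that enters the terminal binds a synaptotagmin, which with complexin triggers SNARE-driven fusion. MNs release acetylcholine, whereas GABA and glycine in the spinal cord are released by inhibitory interneurons.

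The table gives 1 FPKM value (fragments per kilobase of transcript scaled to the mapped fragments of a library) per gene and genotype, pooled over the 3 samples. Because no value of a single sample was used, no SD, test or p could be computed, each difference below has no replicate check, and the number of reads behind a value is not given in it. A pseudocount of 1 FPKM moved the fold of 16 genes by over 1.5 times, and for these the log2(FPKM + 1) ratio is given beside the fold. A gene was called lower or higher when its FPKM in A2 SMA MNs differed by 2-fold or more from that in Hb9 control MNs. FPKM is scaled to length, so levels of different genes can be set side by side within a genotype.

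The targeted gene was checked first. Smn1 (chr13:100894807-100907645, NCBI m37) was at 137 FPKM in the control against 5.26 FPKM in A2 SMA MNs. Mnx1, whose promoter drives the reporter used for sorting, was at 41.2 and 44.2 FPKM. The MN label was checked against 9 markers, of which 8 are in the table and 7 reached 1 FPKM, the cholinergic gene Slc5a7 being at 0.387 FPKM in the control. Of the 7, 6 were lower in A2 SMA MNs, against 22.4% of all genes that reached 1 FPKM in either genotype. The 8 markers summed to 242 FPKM in the control against 63.9 FPKM in A2 SMA MNs. Isl1 was at 108 and 5.95 FPKM, Lhx3 at 27.6 and 0.348 FPKM, and Chat, which makes acetylcholine, at 15.5 and 0.344 FPKM. All 10 pluripotency markers were higher in A2 SMA MNs, against 6.83% of all genes. They summed to 302 and 1940 FPKM, with Pou5f1 at 98.3 and 775 FPKM. In these bulk samples, fewer neurons and less RNA of a gene per neuron cannot be told apart, and the part of cell makeup in the values below was not tested.

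Most genes of vesicle release and loading were lower in A2 SMA MNs. Of the 47 genes, 44 reached 1 FPKM in at least 1 genotype and were above 0 in both. Among these 44, 34 were lower by 2-fold or more (77.3%), against 22.4% of the 14926 genes with a symbol that passed the same filter. Of the 44, 16 passed the filter through Hb9 control MNs alone and so had to have a log2 ratio below 0, and 1, Rims1, passed through A2 SMA MNs alone. With 1 FPKM required in both genotypes, 19 of 27 were lower and 1 higher, against 17.8% and 4.97% of 13252 genes. With the filter in either genotype, the higher genes were 2 of 44, Syt9 and Rims1, against 6.83% of all genes. The median log2 ratio of the 44 was -1.63 (quartiles -3.34 and -1.10), and that of all genes was -0.29 (quartiles -0.89 and 0.19). The remaining 8 genes differed by less than 2-fold. They were Syt3, Syt12, Vamp1, Syn3, Syngr1, Rab3b, Unc13b and Slc17a7.

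Without the filter, 37 of the 47 genes were lower and 2 higher, and the background over genes above 0 FPKM in both genotypes was 24.5% lower and 8.41% higher. Relative to the median gene, which was itself lower by 0.29 on the log2 scale, 28 of the 44 genes were lower and 3 higher, against 16.5% and 10.4% of all genes. Syt5, Syt13, Syn2, Sv2a, Rab3d and Sncb lost the call, and Syt3 gained one as higher with a relative log2 ratio of 1.03. Sv2b, Cplx3 and Unc13c did not pass the filter, with 0.614, 0.0829 and 0.151 FPKM in Hb9 control MNs and 0.0546, 0.0352 and 0.0144 FPKM in A2 SMA MNs.

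**Figure D1:**
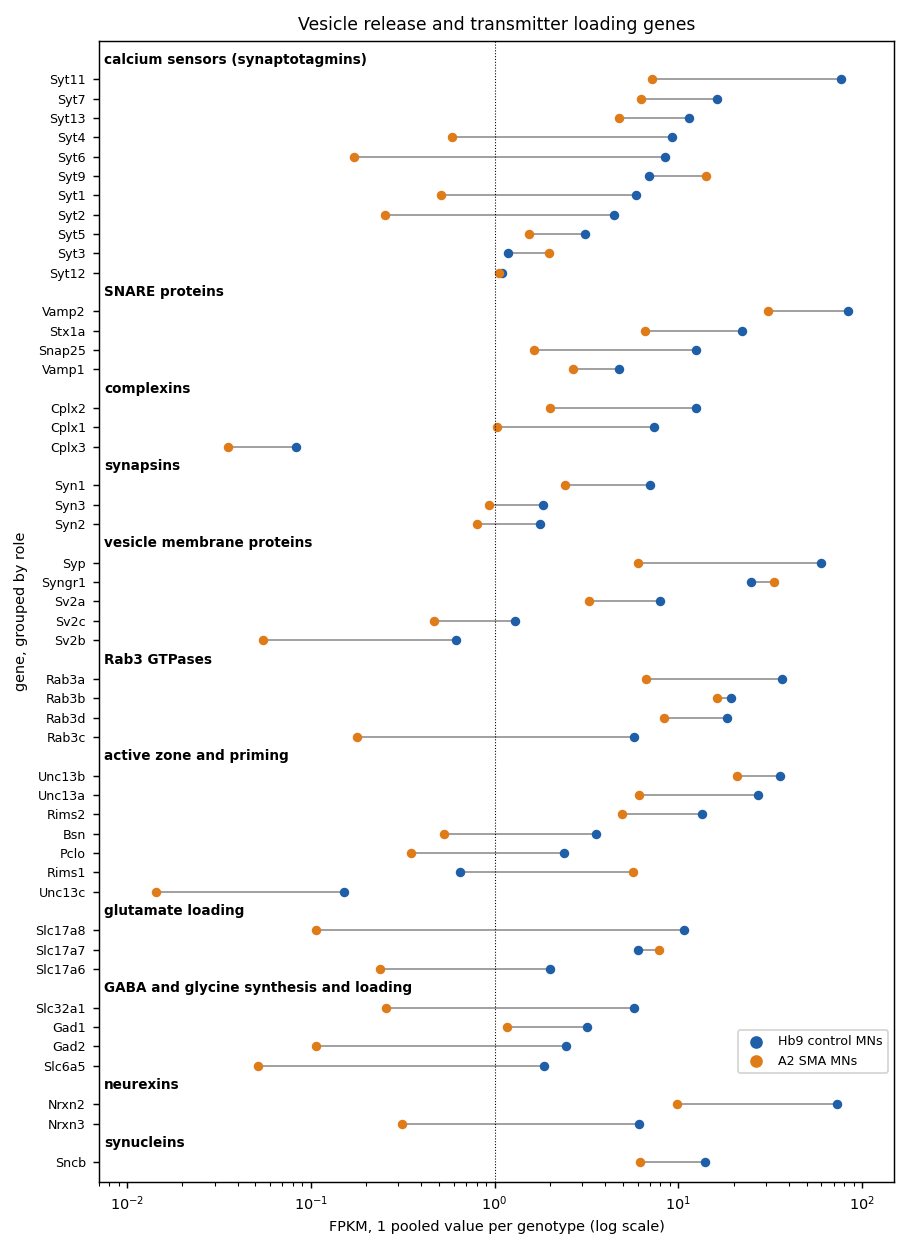
FPKM of each of the 47 genes on a log axis, grouped by role, with Hb9 control MNs in blue and A2 SMA MNs in orange (1 pooled value per genotype, no error bars). The orange point lies to the left of the blue one for 42 genes and to the right for 5, and the dotted line marks 1 FPKM.

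Levels spread over a wide range in both genotypes. In Hb9 control MNs, 43 of the 47 genes reached 1 FPKM and 18 reached 10 FPKM. In A2 SMA MNs, 28 reached 1 FPKM and 5 reached 10 FPKM. The summed FPKM of the 47 genes was 682 in Hb9 control MNs and 227 in A2 SMA MNs, and the median gene was at 6.96 and 1.64 FPKM. Vamp2, Syt11, Nrxn2, Syp and Rab3a led the order in Hb9 control MNs, whereas Syngr1, Vamp2, Unc13b, Rab3b and Syt9 led it in A2 SMA MNs. No gene was listed at 0 in a genotype.

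**Figure D2:**
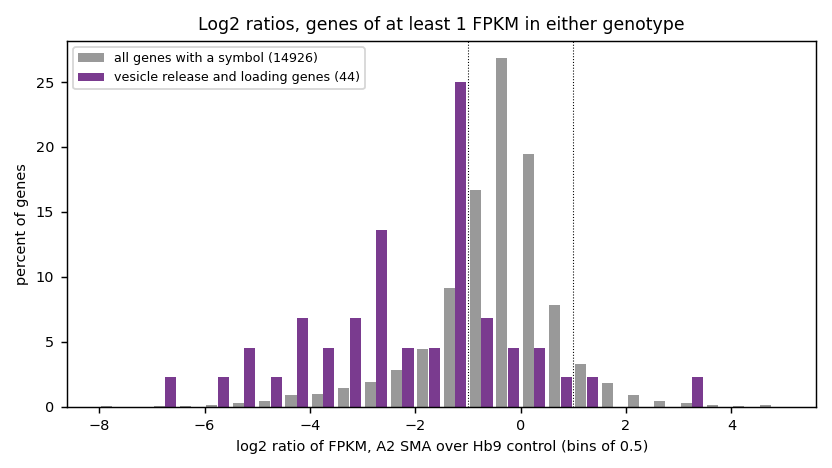
Percent of genes by log2 ratio of FPKM (A2 SMA over Hb9 control, bins of 0.5) for 44 genes of vesicle release and loading in purple and 14926 genes with a symbol in grey. The dotted lines mark 2-fold, the outermost bins also hold values beyond them, and the fullest bin of the vesicle genes, from -1.5 to -1, holds 11 of the 44.

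The calcium sensors Syt1, Syt2 and Syt7 were among the lower genes. Syt1, the main sensor of central synapses, was at 5.85 FPKM in Hb9 control MNs against 0.514 FPKM in A2 SMA MNs, 11.4-fold lower, with a log2(FPKM + 1) ratio of -2.18 (pairs of values are given in this order from here on). Syt2, the sensor used at motor and hindbrain terminals, was at 4.45 and 0.254 FPKM, 17.5-fold lower (log2(FPKM + 1) ratio -2.12). Syt7, the high-affinity sensor of asynchronous release, was at 16.2 and 6.28 FPKM, 2.57-fold lower, or -0.96 on the log2 scale and short of the limit under upper-quartile scaling, and was the only member whose entry carried the authors' status FAIL for its comparison. Of these 3 sensors, Syt1 and Syt2 had the larger differences.

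Synaptotagmins that bind little or no calcium differed from each other. Syt11, a vesicle-trafficking member without calcium sensing, was the most abundant synaptotagmin of Hb9 control MNs, at 77.0 and 7.20 FPKM, 10.7-fold lower. Syt4, a relative of Syt11 found on dense-core vesicles, was at 9.20 and 0.589 FPKM, 15.6-fold lower (log2(FPKM + 1) ratio -2.68). Syt13 was at 11.4 and 4.74 FPKM, 2.41-fold lower. Syt12, by contrast, was at 1.10 and 1.06 FPKM, a log2 ratio of -0.06 that turned to 0.23 relative to the median gene. The stretch of Syt12 also holds Rhod, at 8.25 and 10.1 FPKM.

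The remaining synaptotagmins gave the widest contrast. Syt6 was at 8.49 and 0.171 FPKM, 49.7-fold lower (log2(FPKM + 1) ratio -3.02). Syt5 was at 3.11 and 1.54 FPKM, 2.02-fold lower and just past the 2-fold limit. Syt3 was at 1.19 and 1.98 FPKM. Syt9 (chr7:114514242-114692170, NCBI m37), a fast sensor of release like Syt1 and Syt2, was at 6.96 and 14.2 FPKM, 2.03-fold higher, with a log2 ratio of 1.02 that was 0.93 with a pseudocount of 1 FPKM. The summed FPKM of the 11 synaptotagmins was 145.0 and 38.5, and Syt9 made up 4.80% of it in Hb9 control MNs and 36.8% in A2 SMA MNs. Syt11 made up 53.1% and 18.7%.

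Of the 4 SNARE proteins that drive fusion, 3 were lower, against 22.4% of all genes. Snap25, the plasma membrane SNARE of neurons, was at 12.5 and 1.64 FPKM, 7.60-fold lower. It has 3 entries in the table, and the other entries gave log2 ratios of -3.17 and -4.42 against -2.93 for the one used. Stx1a, syntaxin 1A, was at 22.1 and 6.62 FPKM, 3.34-fold lower. Vamp2, synaptobrevin 2 on the vesicle, was the most abundant of the 47 genes in Hb9 control MNs, at 83.5 and 30.8 FPKM, 2.71-fold lower. Vamp1, the synaptobrevin prominent at motor terminals, was at 4.74 and 2.67 FPKM, a difference below 2-fold. Vamp2 made up 94.6% and 92.0% of the pair's summed FPKM.

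Complexins, which clamp and promote SNARE fusion, had folds near that of Snap25. Cplx1 was at 7.41 and 1.04 FPKM, 7.14-fold lower (log2(FPKM + 1) ratio -2.05). Cplx2 was at 12.5 and 2.01 FPKM, 6.21-fold lower. Cplx2 made up 62.5% of the family's FPKM in Hb9 control MNs and 65.2% in A2 SMA MNs, so the make-up was nearly the same while the sum was 6.48-fold lower.

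Synapsins, which tether the reserve pool of vesicles, differed less. Syn1 was at 6.98 and 2.42 FPKM, 2.88-fold lower. Syn2 was at 1.77 and 0.808 FPKM, 2.19-fold lower, and Syn3 was at 1.84 and 0.933 FPKM, 1.97-fold lower and just short of the limit. The library kit does not mark strand, so reads of overlapping genes cannot be told apart. Another entry of at least 1 FPKM lies in the stretch of 13 vesicle genes. Besides Syn1 and Syn3, they are Syt3, Syt4, Syt6, Syt11, Syt12, Vamp1, Rab3a, Unc13a, Slc32a1, Gad1 and Nrxn2. The stretch of Syn1 holds Araf, at 99.5 and 70.9 FPKM, and Timp1, at 12.9 and 16.7 FPKM, and the stretch of Syn3 holds Timp3, at 53.4 and 8.78 FPKM.

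Vesicle membrane proteins lay on both sides of 0. Syp, synaptophysin, the classic marker of synaptic vesicles, was at 59.5 and 6.01 FPKM, 9.90-fold lower. Syngr1, synaptogyrin 1 of the same tetraspan group, was at 24.9 and 33.1 FPKM, 1.33-fold higher, and was the most abundant of the 47 genes in A2 SMA MNs. Sv2a, the main vesicle glycoprotein 2, was at 7.99 and 3.28 FPKM, 2.44-fold lower. Sv2c was at 1.30 and 0.468 FPKM in the entry used (log2(FPKM + 1) ratio -0.65, which is below 2-fold), and its 5 entries spanned log2 ratios from -2.21 to 1.36. Syp and Syngr1, which belong to the same protein group, thus had ratios of opposite sign.

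The Rab3 GTPases, which mark vesicles for docking, stood in a different order in the genotypes. Rab3a, the main neuronal form, was at 36.6 and 6.68 FPKM, 5.49-fold lower. Rab3b was at 19.4 and 16.3 FPKM, a log2 ratio of -0.25 that turned to 0.04 relative to the median gene and to 0.15 under upper-quartile scaling. Rab3c was at 5.72 and 0.178 FPKM, 32.2-fold lower (log2(FPKM + 1) ratio -2.51). Rab3d, better known from exocrine secretory granules, was at 18.3 and 8.38 FPKM, 2.19-fold lower. Rab3a made up 45.8% of the family's FPKM in Hb9 control MNs and 21.2% in A2 SMA MNs, whereas Rab3b made up 24.2% and 51.7%. The stretch of Rab3a also holds Mpv17l2, at 26.1 and 22.6 FPKM.

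At the active zone, the pair of RIM scaffolds had ratios of opposite sign. Rims1 (chr1:22276165-22911673, NCBI m37), which links Rab3 to Munc13 and calcium channels, was at 0.647 and 5.70 FPKM, 8.81-fold higher (log2(FPKM + 1) ratio 2.02) and the largest difference in that direction among the 47 genes. Rims2, its close relative, was at 13.5 and 4.97 FPKM, 2.71-fold lower. Their summed FPKM was 14.1 and 10.7, only 1.32-fold lower, and Rims1 made up 4.59% of it in Hb9 control MNs and 53.4% in A2 SMA MNs. No other entry of at least 1 FPKM lies in the stretch of Rims1.

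Of the priming and scaffold proteins, Unc13a, Bsn and Pclo were lower and Unc13b differed by less than 2-fold. Unc13a, Munc13-1, the main priming factor, was at 27.2 and 6.12 FPKM, 4.45-fold lower, and Glt25d1 in the same stretch was at 67.7 and 55.0 FPKM. Unc13b, Munc13-2, which is also used outside the nervous system, was at 35.9 and 20.9 FPKM, 1.72-fold lower. Bsn, bassoon, was at 3.58 and 0.532 FPKM, 6.74-fold lower (log2(FPKM + 1) ratio -1.58). Pclo, piccolo, was at 2.38 and 0.352 FPKM, 6.75-fold lower (log2(FPKM + 1) ratio -1.32). The giant scaffolds bassoon and piccolo therefore gave nearly the same ratio, and Unc13b made up 56.8% of the Munc13 FPKM in Hb9 control MNs and 77.3% in A2 SMA MNs.

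**Figure D3:**
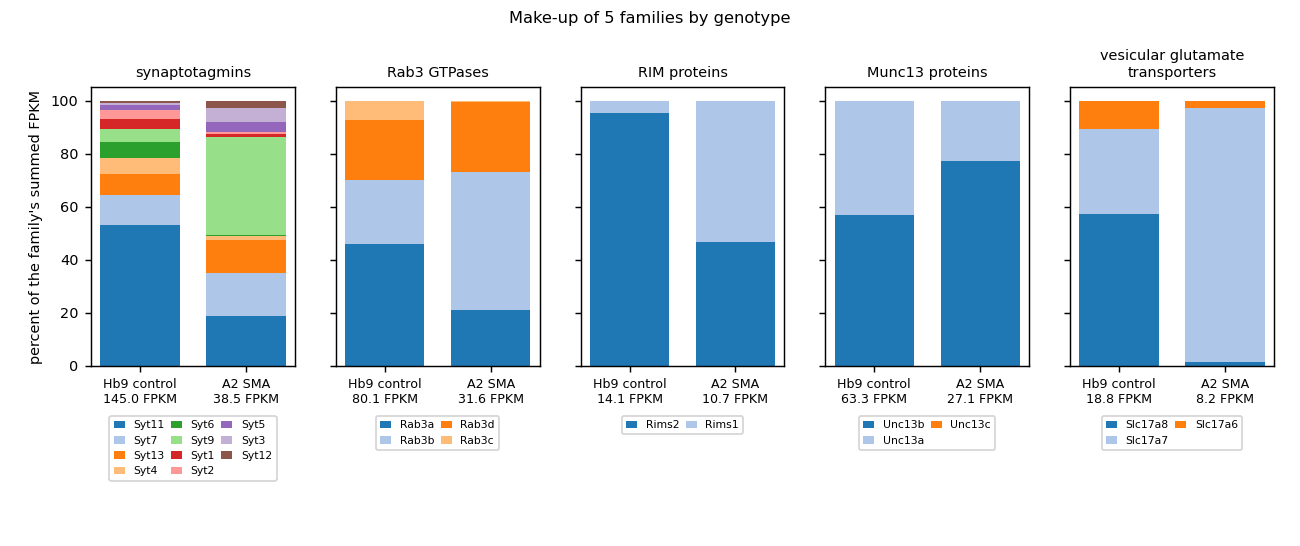
Share of each member in the summed FPKM of 5 families, as stacked bars in percent for each genotype, with the summed FPKM under each bar. Syt9, Rab3b, Rims1, Unc13b and Slc17a7 take larger shares in A2 SMA MNs than in Hb9 control MNs, Slc17a7 going from 32.0% to 95.8%.

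Transporters that load glutamate into vesicles lay on both sides of 0. Slc17a8 (chr10:89036765-89084105, NCBI m37), VGLUT3, found in neurons that mainly use other transmitters, was at 10.8 and 0.107 FPKM, 101-fold lower and the largest difference of the 47 genes. Slc17a6, VGLUT2, the main form of the spinal cord, was at 2.01 and 0.239 FPKM, 8.43-fold lower (log2(FPKM + 1) ratio -1.28). Slc17a7 (chr7:52419291-52431508, NCBI m37), VGLUT1, the main cortical form, was at 6.03 and 7.81 FPKM, 1.30-fold higher. Slc17a8 made up 57.3% of the family's FPKM in Hb9 control MNs and 1.31% in A2 SMA MNs. Its log2 ratio of -6.66 was -5.72 with a pseudocount of 0.1 FPKM and -3.41 with a pseudocount of 1 FPKM. No other entry of at least 1 FPKM lies in the stretch of Slc17a7 or Slc17a8.

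All 4 genes of GABA and glycine transmission were lower, against 22.4% of all genes, and Gad1 lost the call with a pseudocount of 1 FPKM. The others, Slc32a1, Gad2 and Slc6a5, were under 1 FPKM in A2 SMA MNs. They passed the filter through Hb9 control MNs alone, so the direction of their ratios was fixed by the filter. Slc32a1, the shared vesicular transporter of both transmitters, was at 5.73 and 0.256 FPKM, 22.4-fold lower (log2(FPKM + 1) ratio -2.42). Gad2, which makes GABA, was at 2.46 and 0.106 FPKM, 23.1-fold lower (log2(FPKM + 1) ratio -1.65). Gad1, the other GABA-making enzyme, was at 3.20 and 1.17 FPKM, 2.73-fold lower (log2(FPKM + 1) ratio -0.95). Slc6a5, which takes up glycine at glycinergic terminals, was at 1.86 and 0.0519 FPKM, 35.7-fold lower, and its log2 ratio of -5.16 was -3.69 and -1.44 with pseudocounts of 0.1 and 1 FPKM. The cells were sorted for the Hb9 reporter, a gate for MNs. Spinal interneuron markers summed to 87.4 and 15.5 FPKM, with 8 of 9 lower. Lhx1 was at 21.2 and 0.696 FPKM and Gata3, of inhibitory V2b cells, at 15.8 and 4.86 FPKM in a shared entry. The part of interneurons in the values of these genes was not tested.

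The neurexins, presynaptic adhesion proteins that bind neuroligins, and β-synuclein were lower as well. Nrxn2 was at 73.3 and 9.85 FPKM, 7.43-fold lower. Nrxn3 was at 6.10 and 0.314 FPKM, 19.5-fold lower (log2(FPKM + 1) ratio -2.44). Sncb was at 14.0 and 6.20 FPKM, 2.26-fold lower. Nrxn2 made up 92.3% and 96.9% of the pair's FPKM, so the family was nearly all Nrxn2 in both genotypes.

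Other genes of the same steps held both lower and nearly equal members, and the share of all genes to set beside each count is the 22.4% lower and 6.83% higher given above. Of 23 other SNAREs and SNARE regulators, 8 were lower and none higher (median log2 ratio -0.55). Stxbp2, a widely expressed syntaxin-binding protein, was at 134 and 125 FPKM. Napa, the SNAP that helps recycle SNAREs, was at 193 and 178 FPKM in an entry shared with another gene. Of 21 other genes in a list of active zone proteins and presynaptic organizers, 8 were lower and 3 higher (median -0.38). This list also holds neuroligins, the binding partners of neurexins. The most abundant, Ppfia1, a liprin of the active zone, was at 125 and 109 FPKM in a shared entry. Apba2, a presynaptic adaptor, was at 115 and 6.62 FPKM, and Nlgn2, the neuroligin of inhibitory synapses, was at 103 and 31.7 FPKM. Of 2 other synaptotagmins that passed the filter, 1 was lower.

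Genes of vesicle recycling and of the vesicle membrane were counted in the same way. Of 27 genes of vesicle endocytosis and recycling, 5 were lower and 2 higher (median -0.35), shares near those of all genes, and clathrin heavy chain Cltc was at 282 and 273 FPKM in an entry of status FAIL. Of 15 other vesicle membrane proteins and synucleins, 6 were lower (median -0.39). Sncg, γ-synuclein, was at 137 and 5.24 FPKM, and the proton pump subunits Atp6v1b2 and Atp6v0a1 had log2 ratios of -0.39 and -1.03, the latter in an entry of status FAIL. Of 13 other genes of transmitter loading, synthesis and uptake, 6 were lower (median -0.45), and Slc38a2, a transporter that takes up glutamine, was at 115 and 116 FPKM. Ache, which breaks down acetylcholine, was at 19.7 and 4.87 FPKM in a shared entry, and both cholinergic genes that passed the filter, Chat and Ache, were lower.

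**Figure D4:**
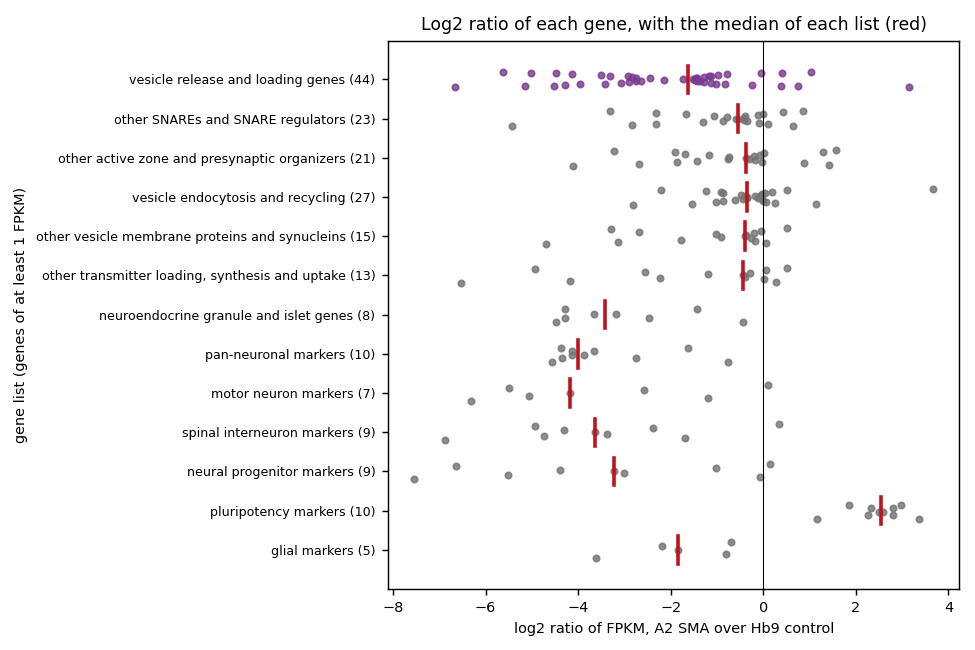
Log2 ratio of FPKM (A2 SMA over Hb9 control) of each gene of at least 1 FPKM, by list, with the list's median as a red bar and the number of genes in brackets. The median of the vesicle genes, -1.63, lies between those of the 5 other synaptic lists drawn, from -0.55 to -0.35, and that of the pan-neuronal markers, -4.00.

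Of 10 pan-neuronal markers, 9 were lower (median log2 ratio -4.00), against 22.4% of all genes. Nefm, a neurofilament subunit, was at 359 and 15.2 FPKM, and Stmn2, a microtubule regulator, had a log2 ratio of -1.63. The marker that was not called, Uchl1, had a log2 ratio of -0.76, and the entries of Elavl3, Stmn2, Ina and Uchl1 have the status FAIL. Of the 44 vesicle genes, 8 had a log2 ratio below that median and 36 above it. The 8 were Slc17a8, Syt6, Slc6a5, Rab3c, Gad2, Slc32a1, Nrxn3 and Syt2, each under 1 FPKM in A2 SMA MNs and past the filter through Hb9 control MNs alone. On the log2(FPKM + 1) scale the lowest vesicle gene, Slc17a8, had a ratio of -3.41. The median of the markers was not computed on that scale, so the 2 cannot be set side by side.

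RE1 is the element bound by REST, a repressor of neuronal genes outside neurons, and its letters were looked for near the start sites of the vesicle genes. Rest itself was at 16.1 and 41.4 FPKM, in an entry of status FAIL. Windows from 250 bases before to 50 bases after the start (RefSeq, GRCm38.p6) were found for 37 of the 47 genes. The half-site CAGCACC, on either strand, was in 4 of them (10.8%) and in 8.14% of 27025 genes in all. The half-site GGACAG was in 12 (32.4%) and in 24.7% of all genes, and both were in 1 (2.70%) and in 2.02% of all genes. The 30-base stretches of the 4 genes with CAGCACC are printed to show the letters found, all on the minus strand of the chromosome. Capitals mark the half-sites, CAGCACC reading GGTGCTG and GGACAG reading CTGTCC on the opposite strand. Positions are those of the first letter of CAGCACC or GGTGCTG as printed. It lies 58 bases before the start in Slc17a8, 101 bases in Sv2c, and 230 and 176 bases in Syn1. In Unc13a it lies 23 bases after the start.
Slc17a8, chr10:89621297-89621326: agggctgccttcagaagccGGTGCTGgtat
Sv2c, chr13:96132653-96132682: actgCAGCACCgaagggaggaggcgaagga
Syn1, chrX:20921123-20921152: gattCAGCACCgcggtcagagccttcgcct
Syn1, chrX:20921069-20921098: tcccCAGCACCaaaggctgactgacgtcac
Unc13a, chr8:71671725-71671754: aggcgCTGTCCgcgcccccGGTGCTGaagc

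The 4 genes with CAGCACC ranged from 101-fold lower for Slc17a8 to 2.78-fold lower for Sv2c, with Unc13a, the only gene with both half-sites, 4.45-fold lower. Of the 37 genes with a window, most had no CAGCACC, and its share was near that of all genes, so nothing is read from which genes hold it. The 12 genes with GGACAG include Syngr1 and Slc17a7, whose FPKM was slightly higher in A2 SMA MNs. A match describes letters in these windows and was not tested as a binding site.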

How the data were processed

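RNA-seq of sorted GFP-positive MNs covered 3 samples of each genotype. The authors trimmed reads with cutadapt, mapped them with TopHat2 to NCBI m37 and compared genotypes with Cuffdiff, and the deposited FPKM values are pooled, 1 per genotype. The submitters' processing notes name FastQC 0.10.1 and TopHat2 2.04, and the versions of Cufflinks and Cuffdiff are not given in the sources used here. The deposited table also holds the authors' log2 fold change, test statistic, p-value, q-value and significance call, which were not used. Their status was read only as a quality mark.

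Symbols were split at commas, and the entry with the highest FPKM was taken for each symbol. Log2 ratios were formed without a pseudocount for genes of at least 1 FPKM in either genotype and above 0 in both, and 2-fold was the limit for a call. The members and lists were chosen with earlier results of these data known. All members of at least 1 FPKM may be named, and from each list at most the 4 genes of highest FPKM, besides Smn1 and Mnx1. Slc5a7, Pcsk1, Uchl1, Elavl3, Ina, the 3 members under 1 FPKM and the genes in the last paragraph of the closing section were named after their values were seen. Some genes of the lists are not reported here. Values were computed with Python 3.11.15, numpy 2.4.6 and pandas 2.3.3, drawn with matplotlib 3.10.9, and the steps were tested on simulated data. The lists not counted in the report were neural progenitor markers (7 of 9 lower), glial markers (3 of 5 lower), endoderm markers (2 of 5 lower), fibroblast and mesoderm markers (3 of 6 lower, 1 higher), REST and its partners (1 of 5 higher) and qRT-PCR reference genes (none of 3 lower or higher). Of all genes past the same filter, 22.4% were lower and 6.83% higher. Alternatives were other scalings, pseudocounts, filters, fold limits and ways to join entries of a symbol.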

Additional observations from a re-analysis of the deposited data

How the results depend on the processing

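No paired analysis was possible because the table holds 1 pooled value per genotype, and for the same reason no replicate could be left out. The 34 lower genes became 19 of 27 when 1 FPKM was required in both genotypes and 21 with a 4-fold limit, and lay between 19 and 37 over 14 alternatives. The 2 higher genes became 1 with a pseudocount of 1 FPKM, 1 with the filter in both genotypes and 1 with the 4-fold limit, and 3 relative to the median gene, under upper-quartile scaling and with a 1.5-fold limit. The median log2 ratio of -1.63 became -1.34 relative to the median gene, -1.23 under upper-quartile scaling, -1.49 relative to the reference genes, -1.61 and -1.30 with pseudocounts of 0.1 and 1 FPKM, -1.74 without a filter, -1.36 with 1 FPKM in both genotypes, -1.95 with 5 FPKM in either and -1.74 without the entry of status FAIL. Without the 13 genes whose stretch holds other entries, an alternative chosen after seeing the data, it was -1.47. The cause of these shifts was not tested. A pseudocount of 1 FPKM moved the fold of 16 of 44 genes by over 1.5 times, 14 of them under 1 FPKM in A2 SMA MNs, and one of 0.1 FPKM moved that of 5. With 1 FPKM, Syt5, Syt9, Syn2, Sv2c and Gad1 lost their call. Syt12 and Rab3b are the genes whose direction depended on the scaling. The table gives no read counts and library totals were not used here, so no counting error is given for values under 1 FPKM.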

Other observations

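A list of neuroendocrine genes holds proteins of dense-core granules, which store peptides and amines rather than fast transmitters, and islet genes. Of its 8 genes of at least 1 FPKM, 7 were lower in A2 SMA MNs by 2-fold or more (median log2 ratio -3.42), against 22.4% of all genes. The 7 include Neurod1, a transcription factor in a shared entry, and Pcsk1, named as the one exception, had a log2 ratio of -0.43. The summed FPKM of the whole list was 192 in Hb9 control MNs and 21.9 in A2 SMA MNs. Scg5, a chaperone of prohormone convertase, was at 43.2 and 3.42 FPKM, and Chgb, a granule matrix protein, was at 42.9 and 1.93 FPKM. Scg3 was at 32.1 and 1.65 FPKM.

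Some genes outside the naming rule were picked after their values were seen. Slc18a2, which loads monoamines into vesicles, was at 26.9 and 1.48 FPKM. Doc2b, a calcium sensor of spontaneous release, was at 29.3 and 0.682 FPKM. In the other direction, Rab27a, a GTPase of secretory granules, was at 8.22 and 24.6 FPKM in an entry of status FAIL, and Hspa8, the chaperone that uncoats clathrin vesicles, was at 7.27 and 92.9 FPKM in an entry shared with another gene.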
